A study of Arabidopsis thaliana with 4 samples.

Results

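The genes described here are those with a positive log2 ratio on all 4 arrays once the dye-swapped arrays had been turned to 1 orientation. Arabidopsis thaliana plants of the hy5 mutant and of the wild type had both grown for 4 days in white light without darkness, and the labels give neither the hy5 allele nor the tissue. HY5 is a bZIP transcription factor, and its loss is the only genetic difference that the labels name. Total RNA of the mutant and of the wild type was hybridised together to each of 4 two-colour arrays of long oligonucleotide probes. The mutant carried Cy3 on replicates 1 and 2 and Cy5 on replicates 3 and 4. The 4 arrays form 1 group of biological replicates per the series' design text.

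Genes were taken from probes paired with 1 gene in the platform annotation, and 1227 of 1827 such genes had values on all 4 arrays. Replicates 1 and 2 were multiplied by -1, and genes whose 4 turned values were all at or above 0.2 were kept. This held for 51 of the 1227 genes, which is 4.16% of them. The mirrored condition, all 4 turned values at or below -0.2, held for 40 genes, or 3.26%. All features with 4 values, that is genes and probes not paired with 1 gene, numbered 16577. Among them, the shares were 3.96% at or above 0.2 and 3.47% at or below -0.2. Of the 51 genes, 7 were left aside by name, among them PORB, LEA18 and 4 class III peroxidase genes, with mean turned ratios of 0.35 to 2.97. The remaining 44 genes, 3.63% of the 1212 genes left when all genes named for leaving out are taken off, include AT5G32482, whose value averages 9 probes listed under 1 accession, and the other 43 are described here by name. All 43 rest on 1 probe each.

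The sign of a turned ratio has several possible readings that the deposited table cannot tell apart. If each column is the Cy5 signal divided by the Cy3 signal, which is limma's convention, a positive turned value means more signal from the mutant than from the wild type. If the ratios had already been turned to mutant over wild type before deposit, a positive turned value means more signal in Cy5 than in Cy3 whichever genotype carried it. The inverse ratios, Cy3 over Cy5 or wild type over mutant, would reverse each of these readings. For that reason "positive" is used here as a sign only, and the text assigns no gene to 1 genotype. The 4 values of each gene chose it, so they are given as a description, and no test of a gene's ratio rests on them.

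As background, HY5 accumulates in the light and binds ACGT-containing elements in the promoters of many genes, among them genes for photosynthesis, pigments and nutrient uptake. COP1, an E3 ubiquitin ligase, marks HY5 for breakdown in darkness. Seedlings that lack HY5 have long hypocotyls in the light and altered root growth and chlorophyll content. HY5 itself was not among the named genes.

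No feature passed an adjusted p of 0.05 in limma when the turned ratios of 24153 genes and unnamed probes were tested against 0 (0%, smallest adjusted p 0.465). At an unadjusted p under 0.05 in this two-sided test, 2122 features were called, 1079 positive (4.47%) and 1043 negative (4.32%). The cut-off of 0.05 covers both signs together, so neither share alone is to be set against it. Across the 1227 named genes, Pearson's r of the turned ratios was 0.37 for the pair of arrays with the mutant in Cy3 and 0.16 for the pair with it in Cy5. Between arrays of opposite dyes r lay between -0.035 and 0.14. Genes are not independent replicates, so these correlations carry no p. Replicate 4 lacked values for 34.9% of all 27648 probes, against 3.29% to 9.55% on the others. Of 34 marker genes listed for seed, root, green shoot and flower, 4 were measured with a name, none of them for green shoot or flower. The seed gene OLEO3 had a mean turned ratio of -0.35, and the 3 root genes had -0.18 to 0.096. A ratio does not show whether a tissue was present.

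The 43 genes had mean turned ratios of 0.27 to 2.16, with a median of 0.64, against a median of -0.017 over all 1227 genes. Their SD over the 4 arrays ran from 0.049 to 1.70 with a median of 0.24, and the median SD over all 1227 genes was 0.38. The rule fixes every mean at or above 0.2, and asking 4 values for 1 sign can favour small spreads. Both comparisons are therefore a description of the selection. The means of 5 genes reached 1, and those of 12 genes lay under 0.5. Only AT2G16005 had all 4 values at or above 1, and 11 genes had all 4 at or above 0.5. The lowest value lay under 0.3 for 18 genes, close to the threshold. By array, the median of the 43 genes was 0.53, 0.62, 0.58 and 0.63 on replicates 1 to 4. Replicate 2 gave the highest value for 17 genes and replicate 1 the lowest for 19.

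**Figure D1:**
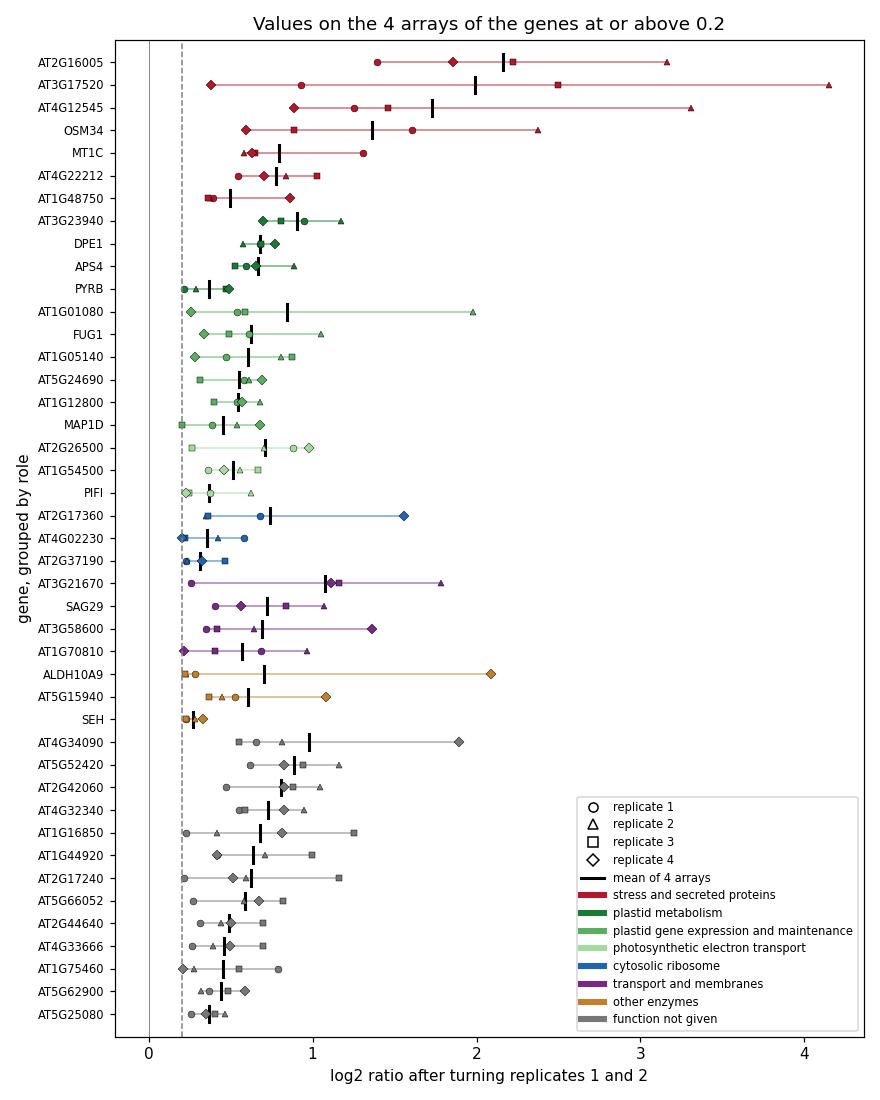
The log2 ratio on each of the 4 arrays (x axis, replicates 1 and 2 turned) is plotted for 43 genes grouped by role (y axis); symbols mark the replicates, black bars the mean of 4 arrays, horizontal lines the range and the dashed line the threshold of 0.2. AT2G16005, AT3G17520, AT4G12545 and OSM34 reach the highest values, and SEH, with a mean of 0.27, stays within 0.23 to 0.33.

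The 4 genes with the largest mean turned ratios encode secreted or stress-related proteins, a group of 7 genes in all. Like the groups below, it was put together by hand after the values were known. The share of such genes among all named genes could not be counted, so each group is a description. AT2G16005 encodes a protein with a lipid-recognition domain of the ML family. Its turned log2 ratios were 1.40, 3.16, 2.23 and 1.86 on replicates 1 to 4, a mean of 2.16 ± 0.75 (SD, n = 4) or 4.47-fold. Every array lay far above the threshold, and both dye orientations gave nearly the same mean, 2.28 with the mutant in Cy3 and 2.04 with it in Cy5. AT4G12545 belongs to the family of lipid-transfer proteins and seed albumins, small cysteine-rich secreted proteins. It had 1.25, 3.31, 1.46 and 0.89, a mean of 1.73 ± 1.08 (SD, n = 4), with replicate 2 well above the other arrays. AT1G48750, of the same family, had 0.39, 0.37, 0.36 and 0.86, a mean of 0.50 ± 0.24 (SD, n = 4), and here replicate 4 was the high one.

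AT3G17520 encodes a late embryogenesis abundant protein, a class that accumulates in maturing seeds and in drying tissue. Its values were 0.93, 4.15, 2.50 and 0.38, a mean of 1.99 ± 1.70 (SD, n = 4), the widest spread among the 43 genes. Without replicate 2 the mean was 1.27. OSM34, an osmotin-like protein of the thaumatin family linked to osmotic stress and defence, had 1.61, 2.37, 0.88 and 0.59, a mean of 1.36 ± 0.80 (SD, n = 4). Both arrays with the mutant in Cy3 lay above both arrays with it in Cy5.

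The group has 2 more genes. MT1C, a metallothionein that binds metal ions, had 1.31 on replicate 1 and 0.58, 0.65 and 0.63 on replicates 2 to 4, a mean of 0.79 ± 0.34 (SD, n = 4). AT4G22212, a defensin-like gene, had 0.54, 0.84, 1.03 and 0.70, a mean of 0.78 ± 0.20 (SD, n = 4), with the arrays of the 2 orientations overlapping.

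A larger set of 13 genes encodes proteins with a known place in the plastid, the organelle of photosynthesis and of much primary metabolism. Their mean turned ratios ran from 0.37 to 0.91 with a median of 0.61, below the means of the 4 largest genes above. The set was put together by hand after the values were known, and the share of plastid genes among the named genes could not be counted, so it is a description and not an enrichment.

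Of these, 4 are enzymes of plastid metabolism. AT3G23940 encodes dihydroxyacid dehydratase, a step in the synthesis of branched-chain amino acids. Its turned ratios were 0.95, 1.17, 0.81 and 0.70, a mean of 0.91 ± 0.21 (SD, n = 4) or 1.87-fold. DPE1, the plastid disproportionating enzyme that recycles maltotriose during starch breakdown at night, had 0.68, 0.58, 0.69 and 0.77. Its mean of 0.68 ± 0.079 (SD, n = 4) or 1.60-fold came with an SD under the median SD of 0.24 over the 43 genes. APS4, an ATP sulfurylase at the entry of sulfate assimilation, had 0.59, 0.89, 0.53 and 0.66, a mean of 0.67 ± 0.16 (SD, n = 4). PYRB, the aspartate transcarbamoylase of pyrimidine synthesis, stayed smaller at 0.22, 0.29, 0.47 and 0.49, a mean of 0.37 ± 0.13 (SD, n = 4). Its 2 arrays with the mutant in Cy3 lay below both other arrays.

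A further 6 genes act in plastid gene expression or upkeep, with means of 0.45 to 0.84. FUG1 is the plastid translation initiation factor of the IF2 type, and it had 0.61, 1.05, 0.49 and 0.33, a mean of 0.62 ± 0.31 (SD, n = 4). AT1G12800, an RNA-binding protein with an S1 domain, had 0.54, 0.68, 0.40 and 0.57, a mean of 0.55 ± 0.12 (SD, n = 4), the most even of the 6. AT5G24690, a relative of the RETICULATA proteins of leaf development, had 0.58, 0.61, 0.31 and 0.69, a mean of 0.55 ± 0.16 (SD, n = 4). In these last genes the 2 orientations overlapped, whereas both FUG1 values with the mutant in Cy3 lay above both with it in Cy5. AT1G01080, an RNA-binding protein of the chloroplast ribonucleoprotein family, averaged 0.84 ± 0.77 (SD, n = 4). Replicate 2 stood at 1.98 and the others between 0.26 and 0.59, and without replicate 2 the mean was 0.46. AT1G05140, a membrane metalloprotease of the M50 family, averaged 0.61 ± 0.28, and MAP1D, an organellar methionine aminopeptidase, averaged 0.45 ± 0.20 (SD, n = 4 each).

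The last 3 plastid genes belong to photosynthetic electron flow. AT2G26500 encodes PetM, a small subunit of the cytochrome b6f complex that links the photosystems. It had 0.88, 0.71, 0.26 and 0.98, a mean of 0.71 ± 0.32 (SD, n = 4), with replicate 3 the low array. AT1G54500, a rubredoxin needed for photosystem II to accumulate, had 0.36, 0.56, 0.67 and 0.46, a mean of 0.51 ± 0.13 (SD, n = 4). PIFI, which acts in chlororespiration and is named for the rise in chlorophyll fluorescence after illumination, had 0.38, 0.62, 0.25 and 0.23, a mean of 0.37 ± 0.18 (SD, n = 4). For PIFI both arrays with the mutant in Cy5 lay close to the threshold, and both with it in Cy3 lay higher.

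Cytosolic ribosomal proteins were represented by 3 genes, each 1 of several near-identical copies in the genome. Cross-hybridisation between such copies was not tested. AT2G17360, of the S4 family of the small subunit, had 0.68, 0.35, 0.36 and 1.56, a mean of 0.74 ± 0.57 (SD, n = 4), and without replicate 4 the mean was 0.46. AT4G02230, of the L19 family of the large subunit, had 0.58, 0.42, 0.22 and 0.20, a mean of 0.36 ± 0.18 (SD, n = 4). AT2G37190, of the L12 family, had 0.23, 0.23, 0.46 and 0.32, a mean of 0.31 ± 0.11 (SD, n = 4). The last pair ran in opposite order between the orientations, AT4G02230 being larger with the mutant in Cy3 and AT2G37190 with it in Cy5.

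Membrane transport and trafficking supplied 4 genes. AT3G21670 encodes NPF6.4, a transporter of the nitrate and peptide family. It had 0.26, 1.78, 1.16 and 1.11, a mean of 1.08 ± 0.63 (SD, n = 4), and replicate 1 was the low array. SAG29, also known as SWEET15, is a sugar exporter induced in senescing leaves and had 0.40, 1.07, 0.84 and 0.56, a mean of 0.72 ± 0.30 (SD, n = 4). Its orientation means were nearly equal, 0.74 with the mutant in Cy3 and 0.70 with it in Cy5. AT3G58600, an adaptin-ear-binding protein of clathrin-coated vesicles, had 0.35, 0.64, 0.42 and 1.36, a mean of 0.69 ± 0.46 (SD, n = 4). AT1G70810, a C2-domain protein that binds membranes in a calcium-dependent way, had 0.69, 0.97, 0.40 and 0.22, a mean of 0.57 ± 0.33 (SD, n = 4).

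Enzymes outside the plastid set numbered 3. SEH, a soluble epoxide hydrolase, had 0.23, 0.28, 0.23 and 0.33, a mean of 0.27 ± 0.049 (SD, n = 4), the smallest mean and the smallest spread of the 43 genes. ALDH10A9, an aldehyde dehydrogenase of the betaine aldehyde type, had 0.28, 0.23, 0.22 and 2.09, a mean of 0.70 ± 0.92 (SD, n = 4). Without replicate 4 the mean was 0.24. AT5G15940, a short-chain dehydrogenase, had 0.53, 0.44, 0.37 and 1.08, a mean of 0.60 ± 0.32 (SD, n = 4).

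For the other 13 genes no role is given here. Their means lay between 0.37 and 0.98. AT5G52420 was the most balanced of those near the top, with 0.62, 1.16, 0.94 and 0.82, a mean of 0.89 ± 0.23 (SD, n = 4) and orientation means of 0.89 with the mutant in Cy3 and 0.88 with it in Cy5. AT4G34090 had 0.66, 0.81, 0.55 and 1.90, a mean of 0.98 ± 0.62 (SD, n = 4), with replicate 4 the high array. AT2G42060 had 0.47, 1.05, 0.88 and 0.82, a mean of 0.80 ± 0.24 (SD, n = 4). In this gene the 2 orientations overlapped, as they did in AT4G32340 with 0.55, 0.95, 0.58 and 0.82, a mean of 0.73 ± 0.19 (SD, n = 4). AT1G44920 had 0.42, 0.71, 0.998 and 0.42, a mean of 0.64 ± 0.28 (SD, n = 4). The remaining 8 genes had means of 0.37 to 0.68. AT1G16850 was the largest of them, with 0.23, 0.41, 1.25 and 0.81, both arrays with the mutant in Cy5 lying above both with it in Cy3.

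Some genes differed in size between the dye orientations although their sign was the same. With the mutant in Cy3 the mean was the larger one for 21 of the 43 genes, and with it in Cy5 for 22. The widest gaps on the first side were those of OSM34, AT4G12545 and AT3G17520, at 1.25, 1.11 and 1.10. On the other side ALDH10A9 had -0.90 and AT1G16850 -0.71, as the Cy3 mean minus the Cy5 mean. In OSM34 and AT1G16850 both arrays of 1 orientation lay above both of the other. In AT4G12545 and AT3G17520 the orientations overlapped and replicate 2 was the high array. The gap of ALDH10A9 rested on replicate 4 alone, at 2.09 against 0.22 to 0.28 on the other arrays. Whether such gaps come from the dyes or from single arrays was not tested. Left as deposited, the 43 genes had means between -0.63 and 0.45, 21 of them negative and 22 positive. These are smaller in size than the turned means because a gene whose signs change with the dyes cancels when no array is turned.

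**Figure D2:**
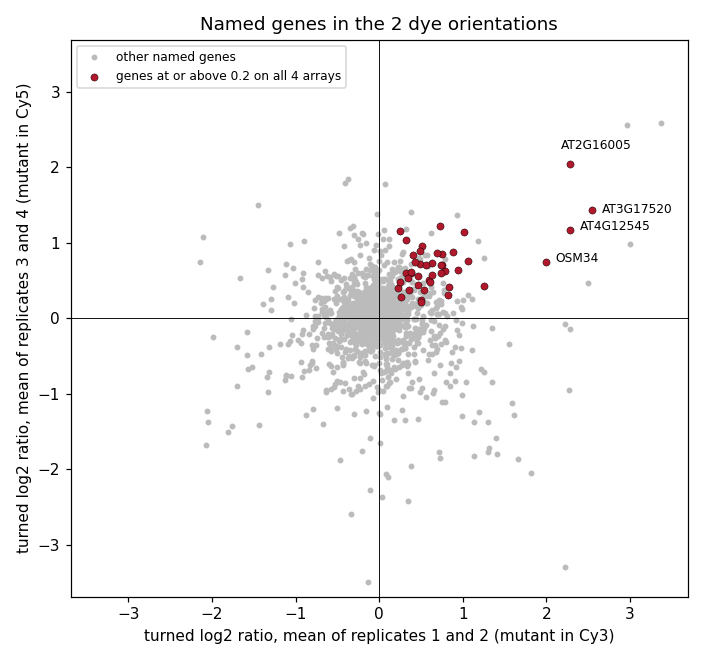
Each point is 1 of the 1227 named genes, with the mean turned log2 ratio of the arrays with the mutant in Cy3 on the x axis and in Cy5 on the y axis; red points are the 43 genes described, grey points all others, including 7 left aside by name and AT5G32482. AT2G16005 lies at 2.28 and 2.04, and most of the red points lie in the corner near the origin, next to grey ones.

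At the threshold itself, the named genes just inside were AT4G02230, MAP1D and AT1G75460, whose lowest values were 0.2001, 0.2021 and 0.2105. Just outside were AT5G46900, AT1G20370 and AT1G58602, with lowest values of 0.1934, 0.1928 and 0.1898. The mean of AT5G46900, a further gene of the lipid-transfer and albumin family, was 0.44 ± 0.19 (SD, n = 4), larger than that of AT4G02230. A single array thus set which of these 6 genes entered. For scale, 3 genes had 17 probes each. The SD between the probes of such a gene on an array ran from 0.126 to 1.19 with a median of 0.414, above the threshold of 0.2. The largest SD was that of AT5G46430, and whether the probes of a gene repeat 1 oligonucleotide was not tested.

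How many genes keep 1 sign on all 4 arrays depended on the threshold in much the same way for the positive and the negative side. Without the genes left aside by name, 80 of 1212 were positive at 0.1, 44 at 0.2, 26 at 0.3, 11 at 0.5 and 1 at 1. The negative counts were 69, 39, 24, 13 and 1. With no array turned, the counts at 0.2 were 26 positive and 35 negative. Of all 1227 genes, the as-deposited shares at 0.2 were 2.2% positive and 2.85% negative.

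**Figure D3:**
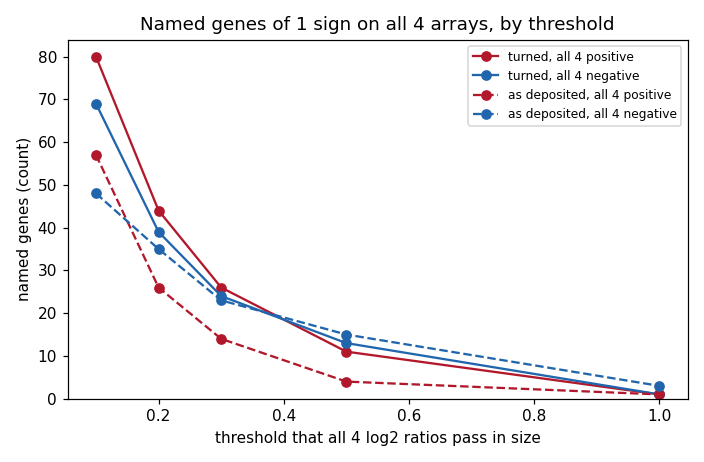
The count of named genes of 1 sign on all 4 arrays (y axis) is plotted against the size that all 4 log2 ratios had to reach (x axis), over 1212 genes; solid lines are the turned and dashed lines the deposited ratios, red positive and blue negative. The solid red and blue lines run close together, at 44 and 39 genes for 0.2 and at 11 and 13 genes for 0.5.

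The position of the genes on the chromosomes was compared only by gene order in the TAIR10.1 gene table, since no build is given for the array. Within 3 genes on either side, 12 of the 43 genes had a named neighbour with 4 values, 14 neighbours in all. None of these neighbours had 4 turned values at or above 0.2, and 5 of the 14 had a positive mean. Over all named genes with 4 values, 4.16% had all 4 at or above 0.2 and 588 of 1227 had a positive mean, so 14 genes are too few to set the neighbours apart from the rest. AT1G54520, near the rubredoxin gene AT1G54500, came closest, with 0.85, 0.63, 0.019 and 0.44. AT5G52450, near AT5G52420, was negative on all 4 arrays, with a mean of -0.45 ± 0.10 (SD, n = 4).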

How the data were processed

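The deposited values are log2 ratios of the 2 channels, 1 per probe and array, which the authors made with limma per the submitters' processing notes. Neither labels nor headers state its version, the background correction, the normalization, the filter behind empty cells or the direction, and base 2 was assumed. Without intensities, the number of arrays limits the precision. Column medians as deposited were 0.012, -0.0080, -0.0018 and -0.041.

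Of 27648 probes, 2032 were paired with 1 gene, 644 with several and 24972 with none. Symbols were updated by Entrez ID in the TAIR10.1 table, where 2029 probes matched. Probes of a gene were averaged per array. Replicates 1 and 2 were multiplied by -1, and 24153 features with values on at least 3 arrays were tested against 0 with the moderated statistic of limma 3.58.1 (R 4.3.3), two-sided and with Benjamini-Hochberg adjustment. The test was run on simulated data whose shifts were larger than the mean turned ratio of any gene described, so smaller shifts were not covered.

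The genes, their groups and roles were chosen with earlier results of these data known. All 43 genes may be named, and values on 4 arrays are given for the 15 with the highest lowest value and for up to 3 genes of each group, and further genes of the groups were added after their values were seen. Lists of light-signalling (28 loci), flavonoid (17 loci) and nitrate genes (5 loci) had 0 named genes with 4 values. Word lists matched 74 of 1227 genes, because the table holds symbols and synonyms only. They held 2 of the 44 genes, PIFI by the word chlorophyll and MAP1D by a chance match of letters, so roles were assigned by hand from background knowledge. Promoter motifs were planned and not analysed here. The other settings tried were the direction, the threshold, centring, scaling, probe rule, moderation, a dye term and leaving out each array.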

Additional observations from a re-analysis of the deposited data

Results flagged for a closer look

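In 3 of 43 sets of 4 values, the gap between 1 array and the nearest of the others took up more of the set's range than Dixon's critical value for 4 values. For unselected values chance gives this in about 1 set in 20, a rate that does not apply here, because the genes were chosen for having no value under 0.2. The gaps are therefore a description. ALDH10A9 was at 2.09 on replicate 4, against 0.22 to 0.28 on the others. AT1G48750 was at 0.86 on replicate 4, against 0.36 to 0.39. MT1C was at 1.31 on replicate 1, against 0.58 to 0.65.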

How the results depend on the processing

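The number of genes at or above 0.2 on all arrays was 44. It was 26 with the ratios as deposited, none of them among the 44 (0 shared), which follows from the turning itself, and 80 at a threshold of 0.1 and 26 at 0.3, which follow from the thresholds. With 1 array left out and 3 arrays required, it ran from 55 of 1231 genes (without replicate 2) to 117 of 1647 (without replicate 4). It was 70 of 1249 genes without replicate 1 and 86 of 1238 without replicate 3. By construction these counts are no smaller than with 4 arrays. The sets of genes with values differ, so the counts are not directly comparable. Centring the arrays gave 47 genes, with all 44 among them, and equal SDs gave 47 with 42 of the 44. Requiring every probe, or leaving out genes with an accession shared by 3 or more probes, gave 43. Under every limma setting run, 0 features passed the adjusted threshold, with smallest adjusted p-values of 0.303 (as deposited) to 0.834 (without replicate 2), and 1321 to 2578 features at an unadjusted p under 0.05. The limma runs without 1 array asked for values on at least 2 arrays, so they tested other sets of 24442 to 25751 features. The means of all 43 genes moved by less than their own SD under centring and under scaling, and none changed sign. For centring, for medians over probes and for arrays left out this holds by construction, so it shows no stability. Centring shifts all these means by the same amount. With column medians of -0.041 to 0.012, that amount is below the smallest SD of 0.049. Each gene has 1 probe, and 1 of 4 values cannot move a mean by its SD. As deposited, 21 of the 43 means were negative. Leaving out 1 array moved a mean by over 1.5 times for AT3G17520 (1.27 without replicate 2), AT1G01080 (0.46 without replicate 2), AT2G17360 (0.46 without replicate 4) and ALDH10A9 (0.24 without replicate 4). The test of the ratios against 0 is itself paired, as a ratio sets both genotypes of 1 array against each other. No paired analysis was possible beyond this, because the arrays form 1 group. What dim signal limits is unknown, since no intensities were used.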

Other observations

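Among 457 named genes with values on only 3 arrays, 37 had all 3 turned values at or above 0.2. The 37 leave out genes left aside by name and genes with an accession shared by 3 or more probes, which the 457 include. All 37 were empty on replicate 4, so this array limited which genes could be described. Most genes with 3 values lacked this array. Values on replicates 1 to 3 were present for 1647 genes, against 1231 to 1249 for the other sets of 3 arrays. Of those 1647 genes, 117 had all 3 turned values at or above 0.2, so the 37 are a description. SQN, a cyclophilin of the CyP40 type that acts in small-RNA pathways, had the largest of these values at 3.17, 5.39 and 3.41 on replicates 1 to 3. RR16, a response regulator of cytokinin signalling, had 1.91, 0.996 and 1.06. The late embryogenesis abundant genes AT3G02480 and AT3G15670 had 1.02, 3.93 and 1.92 and 0.30, 2.72 and 1.54, in the order of the replicates and with replicate 2 the high array for both.

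The 9 probes listed under 1 accession for AT5G32482 did not behave as probes of 1 gene. On replicate 2, 5 of them had turned ratios of 7.13 to 10.3 and the other 4 had 0.26 to 1.36. The 3 probes with a value on replicate 4 gave 0.64, 0.77 and -0.090. Whether these probes measure AT5G32482 was not tested.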
